A study of Cricetulus griseus with 24 samples.

Results

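The annexins are a family of calcium-dependent proteins that bind acidic phospholipids, phosphatidylserine among them, on the inner faces of membranes and, after export, on exposed outer ones. Each has a conserved core that holds the calcium and lipid sites and an amino-terminal tail of its own that takes partner proteins, often of the S100 family. They are known for vesicle traffic, the linking of membrane to actin, the sealing of plasma membrane wounds and, in the clearance of dying cells, for bridging or masking phosphatidylserine on the corpse. The family was taken by gene name: Anxa1, Anxa2, Anxa3, Anxa4, Anxa5, Anxa6, Anxa7 and Anxa11 are 8 of the 26776 gene names that both count tables hold, and all 8 were found, counted and tested in both experiments.

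Messenger RNA was sequenced from LR73 cells, a Chinese hamster line that takes up dead cells, labelled as cultured fibroblasts, in 24 libraries of 6 groups with 4 biological replicates each. The targets were Jurkat cells, a human T lymphoma line, which had been irradiated with ultraviolet C (1500 mJ) to induce apoptosis and then held in culture for 4 h. In the first experiment the phagocytes were alone (control), with cytochalasin D, with apoptotic cells, or with both; cytochalasin D caps growing actin filaments and so blocks engulfment. In the second, wildtype and Slc12a2-deficient LR73 cells were both given apoptotic cells for 2 h, and phagocytes positive for CypHer5E, a dye that lights up in acid compartments after uptake, were sorted, so that every library of that experiment comes from engulfing cells. Slc12a2 is the gene of NKCC1, which carries sodium, potassium and chloride into cells together. The sources used here do not give how the gene was made deficient, whether the deficient cells are 1 clone, the dose of cytochalasin D, or how long the first experiment's phagocytes were with corpses.

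Libraries of the first experiment held 8272232 to 18911353 counts, and those of the second 22758587 to 28450594. The smallest library count was 6140 for Anxa1, 9841 for Anxa2 and 629 for Anxa4, while Anxa3 had only 19 to 145 counts per library, where counting error alone is up to 22.9%. Of 12 fibroblast markers in the tables, Vim and Fn1 averaged 4334 and 1027 CPM in control cells, but Col1a1 and Col1a2, the collagen I genes that define many fibroblasts, were at 0.0455 and 0.138 CPM. Of 15 T lymphocyte markers, Cd3g, Cd2 and Cd5 had no count in any library, and the summed level was 34.8 to 37.2 CPM in control, 30.8 to 37.1 with cytochalasin D, 42.2 to 45.2 with apoptotic cells and 41.2 to 46.4 with both. Lck, a kinase of T cells, was at 0.0259 CPM in control and 3.20 with apoptotic cells. In the sorted cells the sum was 29.5 to 32.1 CPM in wildtype and 23.2 to 28.0 in deficient libraries, with Lck at 0.0585 and 0.0495 CPM. The 6 myeloid markers in the tables summed to at most 4.02 CPM in any library. Along the third principal component 3 libraries stood apart, cytochalasin D replicate 1, control replicate 4 and replicate 4 with both agents, and annexin calls lost without them are given below. Values are TMM-scaled CPM (counts relative to the library total, with totals scaled so that most genes match), given as mean ± SD over 4 libraries. In bulk RNA, fewer cells of a kind and less of a transcript per cell cannot be told apart.

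Compared per kilobase of exon, the family was ordered the same way in all 6 groups. In control cells Anxa2, the partner of S100a10 at the cell surface and on actin-bound membranes, stood highest at 1533 CPM per kb. Anxa1, the glucocorticoid-induced annexin whose exported form acts on formyl peptide receptors, followed at 451 CPM per kb, and Anxa5, the phosphatidylserine binder used as a reagent to stain dying cells, at 174 CPM per kb. Anxa7, a membrane-fusing annexin, was at 87.4 CPM per kb, Anxa11, which tethers RNA granules to lysosomes, at 74.3, and Anxa6, which has a doubled core and acts in endocytosis and cholesterol traffic, at 55.1. Anxa4, an annexin of secretory and epithelial membranes, was at 37.3 CPM per kb, and Anxa3 was lowest at 2.60. In each group, every library of a member lay above every library of the next one down, so no neighbours in this order overlapped. The per-length level of Anxa2 rests on the shortest gene model of the 8, 769 exon bases in 9 exon segments, against 1502 bases in 13 segments for Anxa1, and a model that lacks exons would change it. In the annotation the counts were made on, whose build the sources do not name, Anxa1 lies on the minus strand and Anxa2 on the plus strand of separate scaffolds.

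The family as a whole took 0.275% ± 0.00555 of counts in control libraries, 0.281% ± 0.00427 with apoptotic cells, 0.312% ± 0.00264 with cytochalasin D and 0.322% ± 0.00843 with both. In the sorted cells it took 0.197% ± 0.00684 in wildtype and 0.164% ± 0.0106 in deficient libraries. The tables of the experiments were made and normalized apart, so levels are compared within an experiment only. Annexin transcripts thus made up a larger part of the RNA in the libraries with cytochalasin D, where no library overlapped the 8 without it, and a smaller part in deficient than in wildtype cells.

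**Figure D1:**
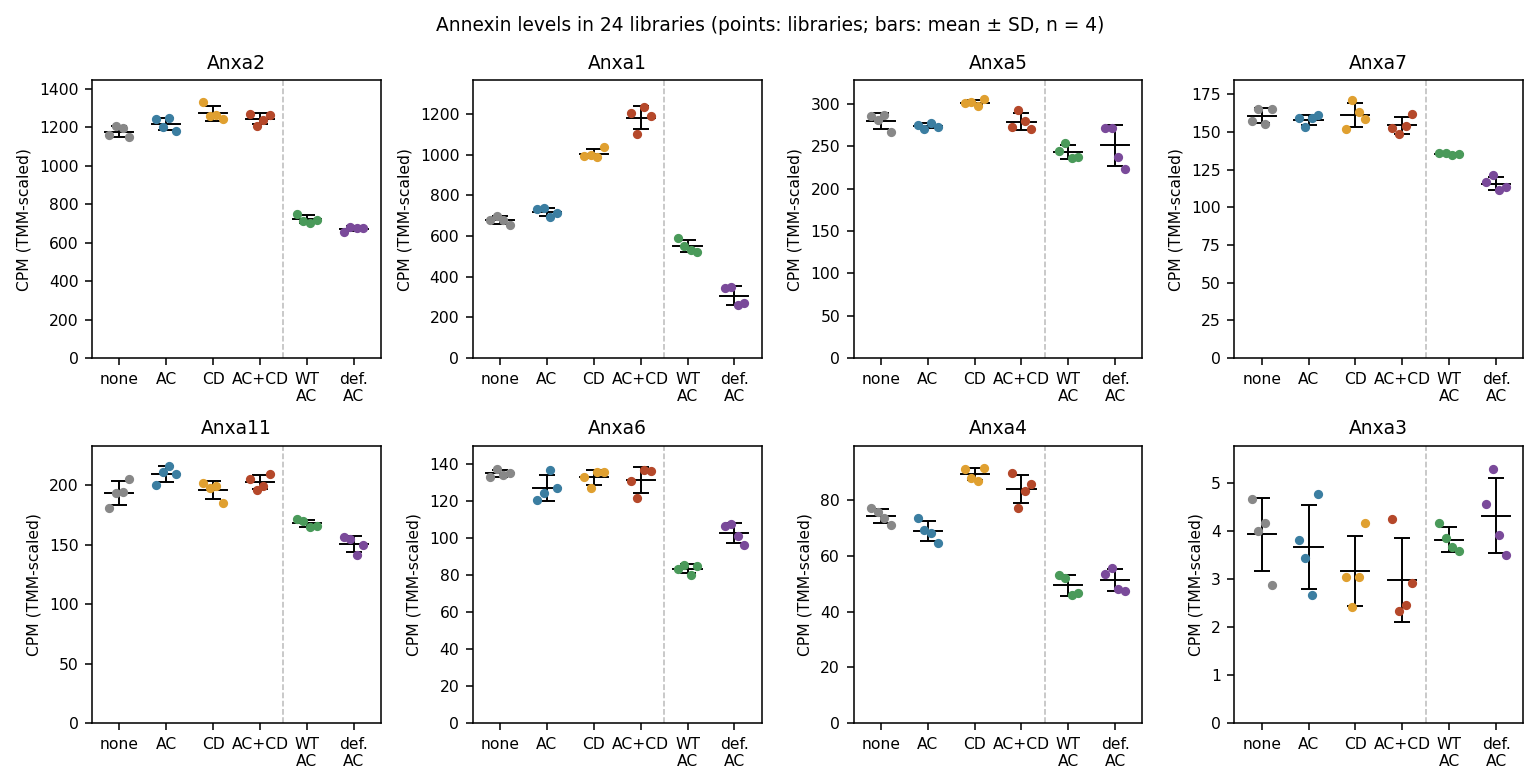
Levels of the 8 annexins in TMM-scaled CPM (vertical axes, from 0) by group, with a point for each library and the mean ± SD of 4 libraries; none is control, AC apoptotic cells, CD cytochalasin D, WT wildtype and def. Slc12a2-deficient, and the dashed line parts the experiments. Anxa1 climbs from 677 CPM in control to 1183 with both agents and drops from 549 to 307 between genotypes, while within an experiment the means of the other 7 lie closer together in CPM.

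Whether corpses changed the family in phagocytes free to engulf was asked by setting cells with apoptotic cells against control. No annexin was called here, that is, none reached a Benjamini-Hochberg adjusted p under 0.05 in edgeR's quasi-likelihood test over the 13106 genes tested. Among all those genes 6.97% were called higher and 6.68% lower, and 0 of 8 annexins in either direction. For all 8 members the 4 libraries with apoptotic cells overlapped the 4 control libraries. The share of all genes whose libraries overlapped was not counted in this or any later contrast. Of the members, 5 had a log2 difference below 0 and 3 above, from -0.12 for Anxa3 to 0.11 for Anxa11. Their median log2 difference was -0.03, against 0.00298 over all genes. At an unadjusted edgeR p under 0.05 there were 3, Anxa1, Anxa4 and Anxa11, and DESeq2 and limma-voom also called 0. Anxa4, the weakest of these 3, ranked 3491 of the 13106 genes by p, so at least that many genes were under 0.05. The count over all genes, 1789, was 1103 (8.33%) without apoptotic cells replicate 3.

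Anxa11 came nearest to a call, with 200, 211, 216 and 209 CPM in the libraries with apoptotic cells and 181, 194, 194 and 205 CPM in control. The groups overlapped through control replicate 4, and edgeR gave a log2 difference of 0.11 (SE 0.04, adjusted p = 0.0784). Without that library the adjusted p was 0.0456, and without the 3 libraries that stood apart it was 0.0399. Anxa1 averaged 719 ± 20.7 CPM with apoptotic cells and 677 ± 19.4 in control, a log2 difference of 0.09 (95% interval 0.01 to 0.16, edgeR adjusted p = 0.117). Anxa5 averaged 274 ± 2.99 CPM with apoptotic cells and 280 ± 9.30 in control, and its interval of -0.11 to 0.04 on the log2 scale bounds any difference to that range.

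Cytochalasin D by itself, set against the same control libraries, raised 4 of the 8 annexins and lowered none. Over all 13106 genes 13.5% were called higher and 12.8% lower. The members' median log2 difference was 0.06, against 0.00884 over all genes. Those that rose were Anxa1, Anxa4, Anxa2 and Anxa5, and for each of them every library with cytochalasin D lay above every control library. How many of all genes stood apart in this way was not counted.

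Anxa1 was at 995, 997, 988 and 1038 CPM with cytochalasin D and at 677, 701, 679 and 653 CPM in control. The gap between the groups was many times the spread within either of them. Its fold was 1.48 (log2 0.57, SE 0.04, edgeR adjusted p = 2.15e-11), and the log2 difference stayed between 0.55 and 0.58 in the 18 alternative fits tried. Of the sum of all annexin CPM gained with cytochalasin D, 71.3% was Anxa1.

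Anxa4 was at 90.9, 87.7, 86.9 and 91.4 CPM with cytochalasin D and at 76.9, 75.6, 73.3 and 71.1 CPM in control. Its groups were also apart, by more than the range within either, with a log2 difference of 0.26 (SE 0.05, edgeR adjusted p = 0.000485). Anxa2 was at 1330, 1258, 1267 and 1242 CPM against 1162, 1208, 1194 and 1150 CPM, a fold of 1.08 (edgeR adjusted p = 0.00932). Anxa5 was at 301, 303, 298 and 306 CPM against 286, 281, 287 and 267 CPM, also a fold of 1.08 (edgeR adjusted p = 0.0284). These last gaps were narrow. Without the 3 libraries that stood apart, Anxa2 and Anxa5 were no longer called (adjusted p = 0.104 and 0.144), which left 2 of 8. Over all genes the share called, higher or lower, was 26.3% with all libraries and 22% without those 3. The call of Anxa5 was also lost without control replicate 4 (adjusted p = 0.104) and without cytochalasin D replicate 1, 2 or 4 (0.0687, 0.0850 and 0.0678), and with no filter on low counts (0.0745) or the compared groups fitted alone (0.0666).

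The remaining 4 were not called with cytochalasin D. Anxa6, Anxa7 and Anxa11 differed from control by -0.02, 0.00434 and 0.02 on the log2 scale, with SEs of 0.04 to 0.05, so that changes as large as that of Anxa4 lay outside all 3 of their 95% intervals. Anxa3 was at 3.17 ± 0.73 CPM against 3.93 ± 0.75 CPM, and its interval of -0.79 to 0.16 was too wide to place it.

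**Figure D2:**
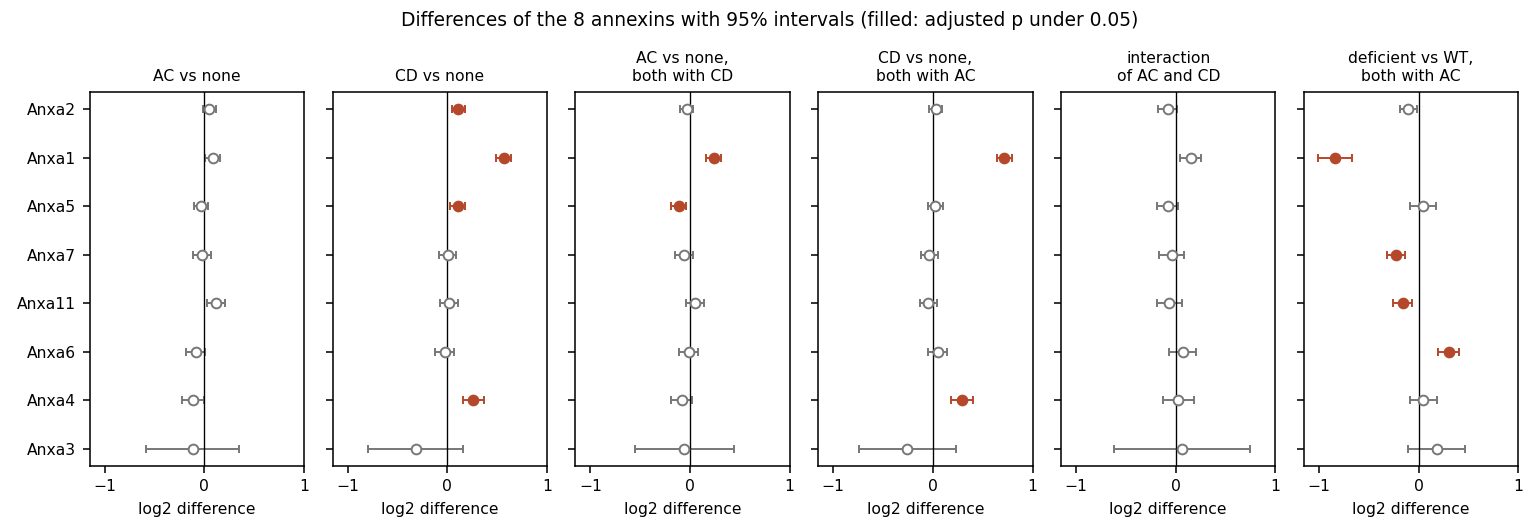
Log2 differences (horizontal axes) of the 8 annexins in the 6 contrasts, from edgeR, with 95% intervals; filled points have an adjusted p under 0.05, and AC, CD and WT are apoptotic cells, cytochalasin D and wildtype. Anxa1 has the widest swing, from 0.72 for cytochalasin D among cells given corpses to -0.84 for genotype, and no point is filled in the panels for corpses alone and for the interaction.

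Corpses were then compared with no corpses while engulfment was blocked, both groups holding cytochalasin D. Over the 13106 genes 4.82% were called higher and 3.79% lower, and of the 8 annexins 1 rose, Anxa1, and 1 fell, Anxa5. The members' median log2 difference was -0.04, against -0.00707 over all genes. The count over all genes, 1129, was 662 (5.01%) without the 3 libraries that stood apart.

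Anxa1 was at 1205, 1102, 1235 and 1188 CPM with both agents, above all 4 libraries with cytochalasin D alone. Its fold was 1.18 (log2 0.24, SE 0.04, edgeR adjusted p = 0.000119), and it was called in all 18 alternative fits. Anxa5 was at 273, 293, 280 and 271 CPM with both agents and at 301, 303, 298 and 306 CPM with cytochalasin D alone, a fall by 0.11 on the log2 scale (SE 0.04, edgeR adjusted p = 0.0453). The groups did not overlap, but the nearest libraries were 293 and 298 CPM, and the call was lost in 12 of 18 alternative fits. They included upper-quartile scaling, no filter, a fit on the compared groups alone, removal of any 1 of 7 of the 8 compared libraries (all but replicate 2 with both agents; adjusted p from 0.0651 to 0.167) and removal of the 3 libraries that stood apart (adjusted p = 0.170). The other 6 members overlapped between the groups, with log2 differences from -0.08 to 0.05. The T lymphocyte markers moved with the same contrast: 3 of the 6 tested rose, Lck from 0 to 3.07 CPM, Zap70 from 0 to 2.96 CPM and Lef1 from 0.0177 to 2.47 CPM. The part of corpse RNA in the annexin counts was not tested.

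Among cells that all had corpses, cytochalasin D raised Anxa1 and Anxa4 and lowered no annexin. The background was 16.4% of genes called higher and 16.1% lower. Here Anxa1 went from 732, 739, 693 and 712 CPM without the drug to the 1102 to 1235 CPM given above, a fold of 1.64 (log2 0.72, SE 0.04, edgeR adjusted p = 2.29e-13). Anxa1 made up 92.3% of the family's gain in CPM. Anxa4 was at 73.5, 69.2, 68.2 and 64.5 CPM without and at 89.5, 77.2, 83.3 and 85.5 CPM with cytochalasin D, a fold of 1.22 (edgeR adjusted p = 0.000156). In both genes the groups did not overlap, and both were called in all 18 alternative fits. Anxa2 and Anxa5, which had risen with the drug in cells without corpses, differed by 0.03 and 0.02 on the log2 scale (adjusted p = 0.508 and 0.656). Anxa2 was called once each library's trend of level with gene length was removed (log2 0.09, adjusted p = 0.0185). That trend, the log2 change per doubling of exon length, ran from -0.06 to -0.03 in the libraries with apoptotic cells and from -0.02 to 0.04 in those with both agents. These 4 contrasts share groups, so their values are set side by side and not correlated.

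The interaction term asked whether the response to corpses itself depended on cytochalasin D. It was called higher for 3.03% and lower for 1.53% of genes, and for 0 of 8 annexins. This background moved with single libraries: the 598 genes called (4.56%) were 1645 (12.4%) without cytochalasin D replicate 4, 251 (1.89%) without apoptotic cells replicate 3 and 120 (0.907%) without the 3 libraries that stood apart. For Anxa1 the log2 response to corpses was 0.09 without the drug and 0.24 with it, a difference of 0.15 (SE 0.05, 95% interval 0.04 to 0.25, edgeR adjusted p = 0.0871). It passed the threshold with the length trend removed (adjusted p = 0.0458), without replicate 2 of both agents (0.0387) and without cytochalasin D replicate 4 (0.0344). Without the 3 libraries that stood apart the adjusted p was 0.198. For Anxa5 the term was -0.08 (edgeR adjusted p = 0.354), and over the 8 members the median was -0.00616 with 4 above and 4 below 0. Unadjusted, edgeR's p was under 0.05 for Anxa1 alone of the 8, and DESeq2 and limma-voom called 0. Anxa2, next of the 8 at an unadjusted edgeR p of 0.0754, ranked 3453 of the 13106 genes by p. The share of all genes under 0.05 was not counted.

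**Figure D3:**
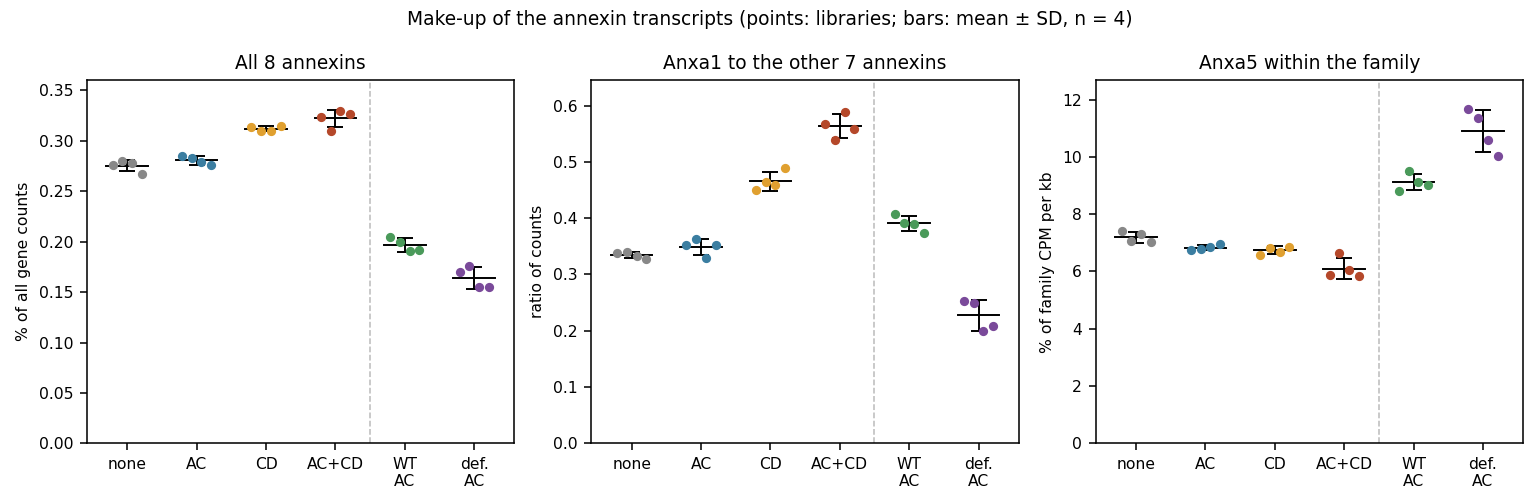
Share of all gene counts taken by the 8 annexins (left), the ratio of Anxa1 counts to the summed counts of the other 7 (middle) and the share of Anxa5 in the family per kilobase (right), by group, with points for libraries and mean ± SD of 4; labels are as in the plot of levels. The middle ratio goes from 0.334 in control to 0.563 with both agents and from 0.391 in wildtype to 0.227 in deficient cells.

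The make-up of the family shifted with the level of Anxa1. A ratio of counts within a library does not depend on how libraries are scaled. That of Anxa1 to the other 7 members was 0.334 ± 0.00563 in control, 0.349 ± 0.0144 with apoptotic cells, 0.466 ± 0.0168 with cytochalasin D and 0.563 ± 0.0209 with both. In the sorted cells it was 0.391 ± 0.0139 in wildtype and 0.227 ± 0.0277 in deficient libraries. Only the ranges of control and apoptotic cells overlapped among the groups of an experiment. Anxa1 made up 18.7% of the family per kilobase in control and 27.7% with both agents, and Anxa2 63.5% and 57.0%, so Anxa2 stayed the most abundant member. Anxa5 made up 9.12% ± 0.28 of it in wildtype and 10.9% ± 0.74 in deficient cells, while its own CPM was not called different there.

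For genotype, Slc12a2 was checked first: it averaged 96.8 CPM in wildtype and 24.7 CPM in deficient libraries. In deficient against wildtype engulfing cells, 3 of the 8 annexins fell, Anxa1, Anxa7 and Anxa11, and 1 rose, Anxa6. The background was broad, with 21.1% of 13050 genes called higher and 21.3% lower, so a share of 3 in 8 falling and 1 in 8 rising is to be read against that. The members' median log2 difference was -0.03, against -0.00178 over all genes.

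Anxa1 was at 343, 350, 263 and 273 CPM in deficient and at 589, 553, 532 and 521 CPM in wildtype libraries. Its fold was 0.56 (log2 -0.84, SE 0.08, edgeR adjusted p = 7.34e-07), and Anxa1 was 80.9% of the family's loss in CPM. The deficient libraries fell into a higher and a lower pair, numbered 11 and 12, and 15 and 16, both well below every wildtype library. Library numbers are the only grouping the labels offer, and they do not call them batches. Among numbers 9 to 12 the ratio of deficient to wildtype was 0.607, and among 13 to 16 it was 0.508, with no overlap in either set.

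Anxa6 was at 107, 107, 101 and 96.1 CPM in deficient and at 83.2, 85.5, 80.0 and 85.0 CPM in wildtype cells. It rose 1.23-fold (log2 0.30, SE 0.05, edgeR adjusted p = 0.000120), with ratios of 1.27 and 1.19 in the sets of library numbers. Anxa7 was at 116, 121, 112 and 113 CPM against 136, 136, 135 and 135 CPM, a fall by 0.23 on the log2 scale (SE 0.04, edgeR adjusted p = 0.000454), with ratios of 0.875 and 0.832. Anxa11 was at 156, 155, 141 and 150 CPM against 172, 170, 165 and 166 CPM, a fall by 0.16 (SE 0.04, edgeR adjusted p = 0.00967), with ratios of 0.913 and 0.879. Anxa11 lost its call without deficient replicate 3 (adjusted p = 0.0551). Anxa6, Anxa7 and Anxa11 had not been called in any contrast of the first experiment.

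Anxa2 was at 653, 681, 679 and 674 CPM in deficient and at 750, 713, 701 and 720 CPM in wildtype cells. The groups did not overlap, yet the test missed the threshold (log2 -0.10, SE 0.04, edgeR adjusted p = 0.0518), and 8 of 16 alternative fits called it, with adjusted p from 0.00535 to 0.173 over them all. Anxa4 averaged 51.1 ± 3.96 CPM in deficient and 49.5 ± 3.74 CPM in wildtype cells, and its interval was -0.09 to 0.19 on the log2 scale. Anxa5 was at 272, 272, 237 and 223 CPM against 245, 254, 236 and 237 CPM, with ratios of 1.09 and 0.972 in the sets of library numbers and an interval of -0.08 to 0.18. Anxa3 averaged 4.31 ± 0.78 CPM against 3.81 ± 0.26 CPM, with an interval of -0.10 to 0.47. Of the fibroblast markers 6 of 8 tested fell and 1, Vim, rose, where 21.3% of all genes were called lower and 21.1% higher. Fn1 was at 1248 CPM in wildtype and 654 CPM in deficient cells. The part of these markers in the annexin differences was not tested.

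Pearson's r of log2 CPM over the 16 libraries of the first experiment was taken against 8915 genes (8916 for Anxa3). Only genes with a gene symbol and a mean of at least 4 CPM were compared. The nearest to Anxa1 were Tnfaip3 (r = 0.987), a ubiquitin-editing brake on NF-kappaB, and Elk3 (r = 0.986), a ternary complex factor. The 16 libraries share 4 conditions, so for a gene that differed between groups, as Anxa1 did, r describes groups more than libraries. Anxa3 and Anxa6 were called in no contrast of the first experiment, and this reading does not extend to them. Tnfaip3 averaged 64.7 CPM in control, 72.4 with apoptotic cells, 133 with cytochalasin D and 211 with both. In the genotype contrast, which the choice of genes did not use, both went the other way from Anxa1. There Tnfaip3 was 1.37-fold higher in deficient cells (edgeR adjusted p = 0.0198) and Elk3 1.28-fold higher (adjusted p = 4.42e-05). The nearest to Anxa4 were Ttc17 (r = 0.956) and Tmbim1 (r = 0.952), to Anxa2 Coro1b (r = 0.924) and Sbsn (r = 0.900), and to Anxa5 Gigyf1 (r = 0.931) and Snrk (r = 0.850). For Anxa11 they were Mrpl21 and Gpr137 (r = 0.870 and 0.862), for Anxa6 Rnf4 and Heatr5a (0.781 and 0.780) and for Anxa3 Map3k15 and Rnf217 (0.774 and 0.762). Map3k15 averaged 57.1 to 59.5 CPM over the groups of the first experiment. Each neighbour is the highest among all genes compared, and how high r would reach by chance was not tested. Within the family the closest pair was Anxa1 and Anxa4 (r = 0.794), while the highest r of Anxa3 with any other member was 0.0187.

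Among 16 genes listed as annexin partners, 12 were tested, while S100b, Plg, Fpr1 and Fpr2 were near or at 0. Fpr1 and Fpr2 encode the receptors that Anxa1 acts on, and their highest group means were 0.0778 and 0.0184 CPM. S100a10, the light chain of the Anxa2 tetramer, and S100a11, which binds Anxa1, were not called in any contrast; they are named here because of their pairing and not by the rule for named genes. In control cells they were at 388 ± 18.7 and 339 ± 12.4 CPM. In wildtype and deficient cells S100a10 was at 330 ± 11.7 and 321 ± 10.7 CPM and S100a11 at 172 ± 6.38 and 176 ± 8.59 CPM, and their intervals for genotype, -0.13 to 0.05 and -0.06 to 0.14 on the log2 scale, left out a change of the size of Anxa1's.

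Plat, the tissue plasminogen activator that the Anxa2 complex binds, averaged 114 ± 4.95 CPM in control and rose to 165 ± 5.58 CPM with cytochalasin D (log2 0.53, SE 0.04, edgeR adjusted p = 2.26e-09). It fell from 99.8 ± 2.47 CPM in wildtype to 63.7 ± 1.73 CPM in deficient cells (log2 -0.65, SE 0.04, edgeR adjusted p = 9.80e-09). In those contrasts it went the same way as Anxa1. With corpses under cytochalasin D, where Anxa1 rose, Plat fell by 0.16 (edgeR adjusted p = 0.0223), a call lost without the 3 libraries that stood apart (0.0937). S100a6, a calcium-binding partner of several annexins, fell from 1596 ± 72.9 to 1343 ± 55.5 CPM in that contrast (edgeR adjusted p = 0.000313), and S100a4 by 0.25 on the log2 scale (adjusted p = 0.000945).

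Of the 12 tested partners, those called higher and lower numbered 0 and 2 with corpses, 2 and 1 with cytochalasin D, and 0 and 3 with corpses under cytochalasin D. The shares over all genes were 6.97% and 6.68%, 13.5% and 12.8%, and 4.82% and 3.79%. Partners called numbered 3 and 2 with the drug among cells given corpses, 1 and 2 for the interaction and 1 and 5 for genotype. There the shares over all genes were 16.4% and 16.1%, 3.03% and 1.53%, and 21.1% and 21.3%. With corpses, Rasa1, a Ras regulator that binds Anxa6, fell by 0.31 (edgeR adjusted p = 0.00666) and Sri by 0.16 (0.0486, lost in 9 of 18 alternative fits). With cytochalasin D, Rasa1 fell by 0.33 (edgeR adjusted p = 0.00160) and Prkca, a kinase that Anxa6 is known to bind, rose by 0.14 (0.0377, lost in 11 of 18). Among cells given corpses, the drug raised Plat, Sri and Prkca and lowered S100a6 and S100a4, by 0.27 and 0.30 on the log2 scale (edgeR adjusted p = 2.17e-05 and 2.40e-05). The interaction was lower for S100a6 and S100a4 and higher for Rasa1; those of S100a4 and Rasa1 were lost without the 3 libraries that stood apart (edgeR adjusted p = 0.119 and 0.0947), and that of S100a6 with the length trend removed (highest adjusted p 0.0539). In deficient cells S100a4, S100a6, Pdcd6 and Ahnak fell with Plat, where the calls of S100a6 and Pdcd6 were lost in 4 and 8 of 16 alternative fits. Ahnak, a giant scaffold tied to Anxa2 and S100a10, went from 1850 ± 156 to 1503 ± 122 CPM (edgeR adjusted p = 0.00179), and S100a4 from 62.6 to 44.9 CPM (adjusted p = 1.28e-05). Dysf, a repair protein that binds annexins, rose from 0.470 to 1.18 CPM, and like Pdcd6 it is also on the list of repair genes.

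Genes of plasma membrane repair, in which annexins act beside the ESCRT complex and calpains, numbered 18 tested. Of these, 7 rose and 2 fell with cytochalasin D, where 13.5% of all genes were called higher and 12.8% lower. With the drug among cells given corpses 5 rose and 2 fell, against 16.4% and 16.1% of all genes. Without the 3 libraries that stood apart the counts were 5 and 1, and 4 and 2. The shares of all genes called, higher or lower, then fell from 26.3% to 22% and from 32.5% to 27.9%. Of the rises with cytochalasin D, those of Vps4b, Chmp4b, Chmp3 and Vps4a were lost in 11, 8, 4 and 3 of 18 alternative fits. Among cells given corpses the rise of Chmp3 was lost in 5 of 18. The list's median log2 difference with the drug alone was 0.12, against 0.00884 over all genes. Smpd1, the acid sphingomyelinase, rose from 99.3 to 133 CPM (log2 0.42, edgeR adjusted p = 1.90e-05), Capn2, a calpain subunit, by 0.27 (7.84e-06), and Myof, a ferlin, fell by 0.15 (0.00491, 0.0580 without the 3 libraries that stood apart). Cav1, the caveolar coat protein, fell from 733 to 478 CPM (log2 -0.62, edgeR adjusted p = 3.67e-10). Among cells given corpses the 4 with the smallest adjusted p were Cav1, lower by 0.49, Vps4b and Chmp2b, higher by 0.40 and 0.49, and Capn2, higher by 0.24. With corpses alone 1 fell, Vps4b (edgeR adjusted p = 0.0412, lost in 8 of 18 alternative fits), under cytochalasin D none was called, and for the interaction none was.

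In deficient cells 4 repair genes rose and 9 fell, where 21.1% of all genes were called higher and 21.3% lower. The list's median log2 difference was -0.13, against -0.00178 over all genes. Chmp3, an ESCRT-III subunit, rose from 52.3 to 99.4 CPM (log2 0.93, edgeR adjusted p = 3.89e-09), and Chmp1b, another, fell from 16.7 to 10.3 CPM (log2 -0.69, adjusted p = 4.03e-06). Capns1, the small calpain subunit, fell by 0.37 (edgeR adjusted p = 2.67e-05) and Smpd1 by 0.32 (5.72e-05). Of the falls, those of Chmp4b, Pdcd6 and Capn2 were lost in 7, 8 and 2 of 16 alternative fits.

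Of the genes that set which side of the membrane holds phosphatidylserine, the lipid that annexins read, 8 were tested. With corpses 1 rose and 2 fell, with cytochalasin D 2 rose and 2 fell, and with corpses under the drug 0 rose and 1 fell. The shares of all genes called higher and lower there were 6.97% and 6.68%, 13.5% and 12.8%, and 4.82% and 3.79%. With the drug among cells given corpses 2 rose and 1 fell, for the interaction 1 was higher and 0 lower, and for genotype 3 rose and 2 fell. Here the shares over all genes were 16.4% and 16.1%, 3.03% and 1.53%, and 21.1% and 21.3%. Without the 3 libraries that stood apart, 2 rose and 1 fell with cytochalasin D, where Atp8a1 was no longer called (edgeR adjusted p = 0.0395, then 0.121). With the drug among cells given corpses 1 rose and 1 fell without them, where Ano6 lost its call (edgeR adjusted p = 0.0201, then 0.103). In these 2 contrasts the shares of all genes called, higher or lower, fell from 26.3% to 22% and from 32.5% to 27.9%. The shares of all genes called, given with the annexin counts, are the background of these lists too. Ano6, a calcium-activated scramblase, fell by 0.21 with corpses both without and with cytochalasin D (edgeR adjusted p = 0.00670 and 0.00766) and was 96.9 CPM in deficient against 79.9 in wildtype cells (adjusted p = 0.000723). Xkr8, the caspase-activated scramblase, rose from 12.2 to 17.6 CPM with cytochalasin D (edgeR adjusted p = 0.000502). Atp11a, a flippase, fell by 0.17 with corpses and by 0.17 with the drug (edgeR adjusted p = 0.00248 and 0.00120), and rose by 0.41 in deficient cells (2.96e-05). The call with corpses was lost once the length trend was removed (adjusted p = 0.107). Atp8a1, another flippase, was 27.7 CPM in wildtype and 18.8 in deficient cells (edgeR adjusted p = 9.25e-05). Among cells given corpses the drug raised Tmem30a, the flippase partner subunit, from 72.4 to 92.5 CPM and lowered Plscr3, a scramblase-family gene, from 42.7 to 35.3 CPM (edgeR adjusted p = 0.00294 and 0.00285). Plscr3 was at 35.9 CPM in control and was the gene that rose with corpses (log2 0.25, edgeR adjusted p = 0.0138, lost in 1 of 18 alternative fits). With cytochalasin D alone Plscr3 was not called (log2 -0.02, edgeR adjusted p = 0.876). The interaction of Tmem30a (edgeR adjusted p = 0.0481) was called in the fit to all libraries but lost in 16 of 25 alternative fits, that without the 3 libraries that stood apart among them (0.224), which left 0 of 8.

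**Figure D4:**
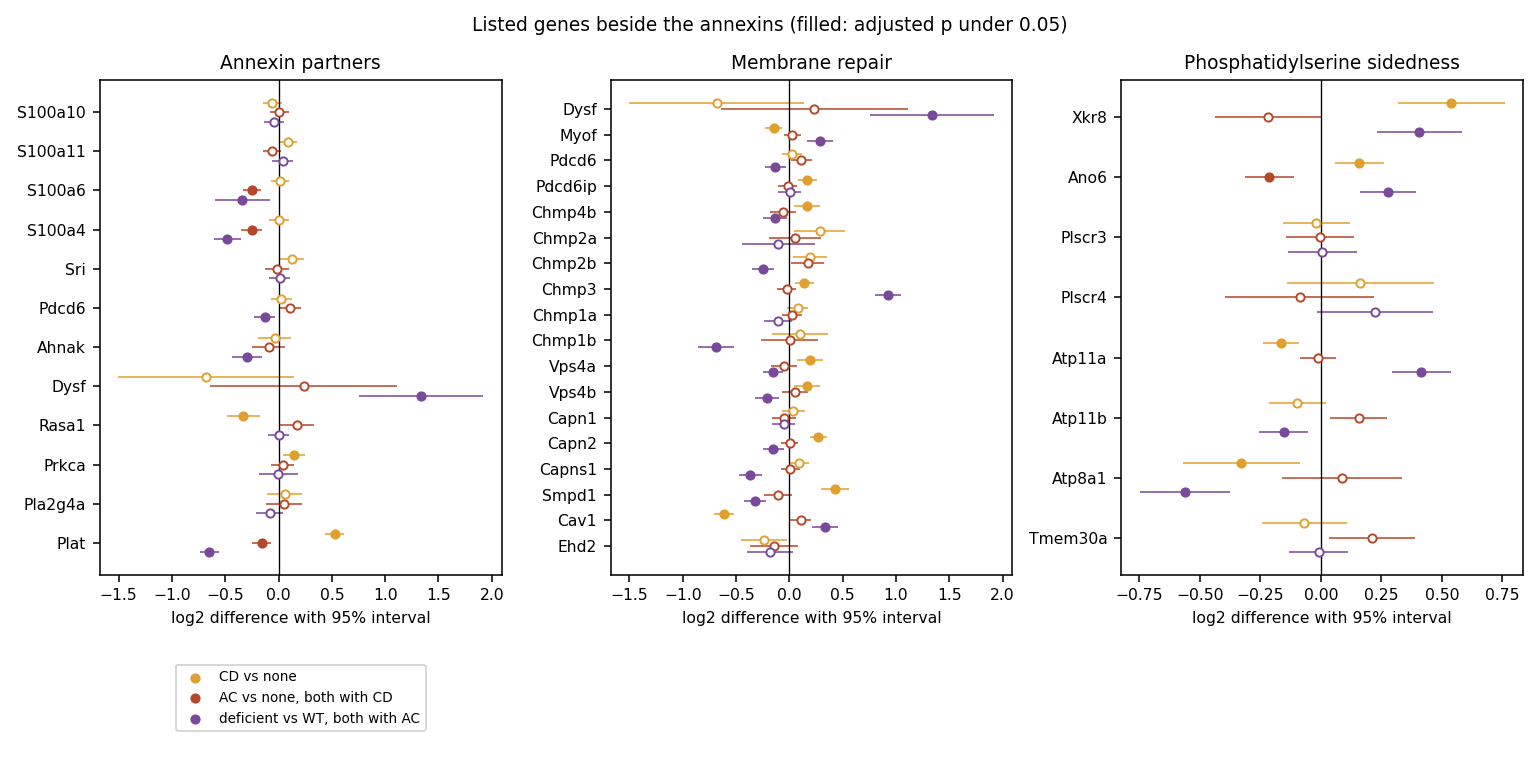
Log2 differences with 95% intervals from edgeR (horizontal axes) for the tested partners of annexins, membrane repair genes and phosphatidylserine sidedness genes in 3 contrasts, yellow for cytochalasin D (CD) against control, red for apoptotic cells (AC) under the drug and purple for genotype; filled points have an adjusted p under 0.05. S100a10 and S100a11 are open in all 3, Plat is at 0.53 and -0.65 in the first and last, and Chmp3 stands out at 0.93 for genotype.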

How the data were processed

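RNA was measured in 24 libraries, 4 in each of 6 groups. The authors deposited raw fragment counts per gene name, made with featureCounts 1.5.0 over exons from STAR alignments, with both ends aligned and no strand or multi-mapping option, per the file headers. Reads were 75 bp paired ends, per the labels' protocols. FastQC, STAR, featureCounts and DESeq2 are named in the submitters' processing notes, with no version there. The sources used here name neither the aligner's version nor the build. Fragments shared between near-identical copies, or carried over from human corpse RNA, could enter or leave a gene's count. A row with a blank name (0.0249% to 0.0445% of counts in the first experiment, 1.13% to 1.65% in the second) was left out.

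Each experiment was fitted alone over all genes with edgeR 4.0.16 in R 4.3.3 (TMM factors, filterByExpr with a minimum count of 10 and a minimum total of 15, quasi-likelihood test on group, Benjamini-Hochberg adjustment, called at an adjusted p under 0.05). Biological coefficients of variation were 7.04% and 6.06%. The scripts were tested on simulated data. Alternatives were DESeq2 1.42.0, limma-voom 3.58.1, RLE and upper-quartile factors, no filter, 1 CPM in 4 libraries, an adjusted p under 0.01, the compared groups alone, removal of a trend with gene length, blocks on the numbers of replicates or libraries, and fits with single libraries left out. Removing the 3 libraries that stood apart was chosen after seeing the data. The members and lists were chosen with earlier results of these data known. Named were all members, up to 4 called genes per list and contrast with the smallest adjusted p, Slc12a2, and the 2 genes nearest each member by r. A few others, named for their pairing with annexins or as markers, were added after their values were seen. Some items are not reported here. Sequences of the genes are not used here. Figures were drawn with matplotlib 3.10.9.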

Additional observations from a re-analysis of the deposited data

Results flagged for a closer look

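Anxa1 with cytochalasin D alone had 1 library away from the other 3. Replicate 4 was at 1038 CPM and the others at 988 to 997 CPM, and the gap to its nearest neighbour was 0.830 of the group's range, just past the 95% critical value of Dixon's test for 4 samples. This was the 1 gap past that value among 48 tests of 8 members in 6 groups, where chance passes about 1 in 20.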

How the results depend on the processing

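For corpses against control the count of annexins called was 0 and became 1 without the 3 libraries that stood apart, and 0 to 1 with each library left out. Over all genes 13.7% were called in the fit to all libraries, 12.2% without those 3 libraries and 8.33% to 12.8% with each left out. For cytochalasin D against control it was 4, 2 without those 3 libraries, 3 at an adjusted p under 0.01, with no filter and on the compared groups alone, and 3 to 4 with each library left out. Shares over all genes were 26.3%, 22%, 17%, 15.8% and 23.3% in that order, and 21.6% to 27.1% with each left out. For corpses under cytochalasin D it was 2, and 1 at an adjusted p under 0.01, with upper-quartile factors, with no filter, on the compared groups alone, without those 3 libraries and with a replicate block, and 1 to 2 with each library left out. Over all genes the shares called were 8.61%, 4.06%, 8.61%, 5.82%, 6.43%, 5.01% and 8.52% in that order of fits, and 5.70% to 12.4% with each left out. For cytochalasin D among cells given corpses it was 2, and 3 with the length trend removed, against 32.5% and 32.9% of all genes. For genotype it was 4, 5 in 7 other fits (RLE or upper-quartile factors, the 1 CPM filter, a library number block, the length trend removed, DESeq2 and limma-voom) and 3 to 5 with each library left out, with Anxa2 the gain (edgeR adjusted p = 0.0318 with the block) and Anxa11 the loss. Over all genes 42.5% were called in the fit to all libraries, 41.1% to 47.7% in those 7 fits and 36.3% to 43.2% with each library left out. For the interaction it was 0, 1 with the length trend removed, and 0 to 1 with each library left out, against 4.56%, 4.13% and 1.89% to 12.4% of all genes. Replicate numbers did not pair most samples: over 24 pairs with the same number the correlation of deviations ran from -0.06 to 0.23, above 0.1 in 3. Over pairs with different numbers it ran from -0.27 to 0.17. Those 3 were the highest of all pairs, and each held a library that stood apart. Whether replicates of a number were prepared together was not tested. The replicate block changed the call of no annexin in the first experiment but Anxa5 with corpses under cytochalasin D (edgeR adjusted p = 0.0571). The block moved the calls over all genes from 598 to 753 for the interaction and by less elsewhere. Under the length trend Ahnak, not called for cytochalasin D among cells given corpses, turned to -0.17. Anxa3, at 19 to 145 counts per library, is limited by depth.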

Other observations

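Anxa9 and Anxa10 were the 2 other annexin names matched in the tables, and Anxa8 and Anxa13 were looked for but matched no gene name there. Anxa10 had no count in 4 of the 6 groups and at most 0.0177 CPM as a group mean. Anxa9 was at 0.750 to 0.920 CPM in the groups of the first experiment with no call there. In the sorted cells it averaged 1.56 ± 0.30 CPM in wildtype and 0.775 ± 0.16 CPM in deficient libraries, a fall by 1.01 on the log2 scale (SE 0.21, edgeR adjusted p = 0.00126), which makes it the widest log2 difference for genotype among the 9 annexins tested, at a level of about 1 CPM.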
